A study of Mus musculus with 117 samples.

Results

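The genes of alcohol and aldehyde metabolism were followed through chromatin state maps of mouse hepatocytes. They were the alcohol dehydrogenase genes Adh1, Adh4, Adh5 and Adh7, the aldehyde dehydrogenase genes Aldh1a1, Aldh1a7, Aldh1b1 and Aldh2, and the catalase gene Cat. The set was chosen by name and holds 9 of the 21631 protein-coding genes of chromosomes 1 to 19 and X, and each was read over its GRCm38 span with 2 kb added at both ends. The hepatocytes, which make up most of the liver, came from 12-week-old female mice of 9 inbred strains with no treatment named in the labels: the wild-derived CAST/EiJ, PWK/PhJ and WSB/EiJ, and NZO/HlLtJ, NOD/ShiLtJ, DBA/2J, C57BL/6J, A/J and 129S1/SvImJ. Each strain had ChIP-seq (sequencing of chromatin pulled down with an antibody) for H3K4me1, H3K4me3, H3K27ac and H3K27me3 in 3 mice and 1 input library, 117 libraries in all. The deposited maps give every 200-bp bin of the genome 1 of 14 states, with 1 map per strain, so a strain is 1 value, the spread is between strains, and the depth behind a state is unknown.

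Alcohol dehydrogenases oxidise ethanol, retinol and other alcohols to aldehydes with NAD+, and aldehyde dehydrogenases oxidise the aldehydes to acids. The liver carries out most of the body's ethanol oxidation, in which acetaldehyde is the intermediate. Catalase, the peroxisomal enzyme that breaks down hydrogen peroxide, can oxidise some ethanol as well.

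The state numbers are names, and the sources used here assign no histone mark to them. States 1, 2, 3, 4, 13 and 14 were therefore placed by genes of known behaviour, and the other states are used as numbers only. State 14 covered 72.3% of the genome and 3.44% of the spans of 10 hepatocyte markers. State 1 covered 2.35% of the genome, 23.7% of the bins within 1 kb of a listed gene start and 31.4% of the hepatocyte marker spans. State 2 covered 2.15% of the genome, 1.35% of the bins within 1 kb of a listed start and 31.5% of the hepatocyte marker spans. State 3 covered 0.389% of the genome and 14.7% of the bins within 1 kb of a listed gene start. It lay within 1 kb of the start of all 10 hepatocyte markers in all 9 strains. None of the markers of endothelial cells, Kupffer cells and leukocytes, stellate cells and bile duct cells, 5 for each, had state 3 there in all 9 strains, and state 1 covered on average between 0 and 3.40% of these 4 lists. State 13 covered 15.9% of the genome, 70.4% of the spans of 6 developmental regulators such as Pax6, and 0% of the hepatocyte marker spans. It was not limited to developmental regulators. It also covered 47.2% of the Kupffer cell and leukocyte marker spans, 38.7% of those of bile duct cells, 29.8% of those of stellate cells and 9.45% of those of endothelial cells. State 14 covered 11.8% of the developmental regulator spans, 44.2% of those of bile duct cells and 47.4% of those of Kupffer cells and leukocytes. For stellate and endothelial markers it was 65.9% and 69.4%. A low share of state 14 was therefore not particular to hepatocyte markers. State 4 covered 2.55% of the genome, 7.52% of the hepatocyte marker spans and 11.1% of the endothelial marker spans. Its share was 1.16% for Kupffer cells and leukocytes, 0.261% for bile duct cells and 0% for stellate cells and developmental regulators. These gene lists, the members and the rules were chosen with earlier results of these data known.

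Most of the members were covered by states other than 14. The share of bins outside state 14 averaged 100% for Adh1 and Cat, 97.9% ± 4.32 for Aldh2, 88.3% ± 6.18 for Adh4 and 81.5% ± 3.71 for Adh5 (SD, n = 9 strains, here and below). It averaged 64.6% ± 14.7 for Adh7, 60.6% ± 3.71 for Aldh1a1, 60.3% ± 16.8 for Aldh1b1 and 58.9% ± 25.6 for Aldh1a7. The members' median was 81.5%, against 38.0% for all protein-coding genes. Each gene's share was compared, strain by strain, with the mean over all protein-coding genes, 44.6%, by a sign-flip permutation test (exact, two-sided) with Benjamini-Hochberg adjustment over all 21631 genes. Of the 9 members 8 were higher and none lower, where 35.8% of all genes were higher and 48.5% were lower. Each of the 8 was higher in 9 of 9 strains (adjusted p = 0.00556, exact test). Aldh1a7 was higher in 5 strains and lower in 4 (adjusted p = 0.207, exact test).

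State 1, which covered much of the hepatocyte markers and was also frequent near the starts of genes in general, was found in every member. It covered 64.2% ± 2.58 of Cat, 52.0% ± 6.87 of Adh1, 43.0% ± 3.43 of Aldh2 and 40.1% ± 6.29 of Aldh1b1. It covered 33.8% ± 2.96 of Adh7, 22.1% ± 2.62 of Adh5, 17.5% ± 3.26 of Aldh1a1, 17.0% ± 6.64 of Adh4 and 12.4% ± 3.34 of Aldh1a7. All 9 members lay above the protein-coding mean of 8.72%, a call made for 25.7% of all genes, and no member lay below it, a call made for 66.4%. Adjusted p was 0.00462 for 8 members and 0.0132 for Aldh1a7, which was higher in 8 of 9 strains (exact tests).

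State 13 was nearly missing from the members. It was at 0 in every strain in 7 of them. The exceptions were Adh5, with 1.77% in PWK/PhJ alone, and Aldh1a1, with at most 1.55% in 5 strains. All 9 members lay below the mean of 13.3% (adjusted p = 0.00492, exact test), and so did 69.3% of all genes. No member lay above it, against 19.4% of all genes. The median gene also had 0% in state 13, and against the median none of the 9 was lower. For a gene at 0% or 100% in every strain the test restates that the mean over genes was larger or smaller in each strain.

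**Figure D1:**
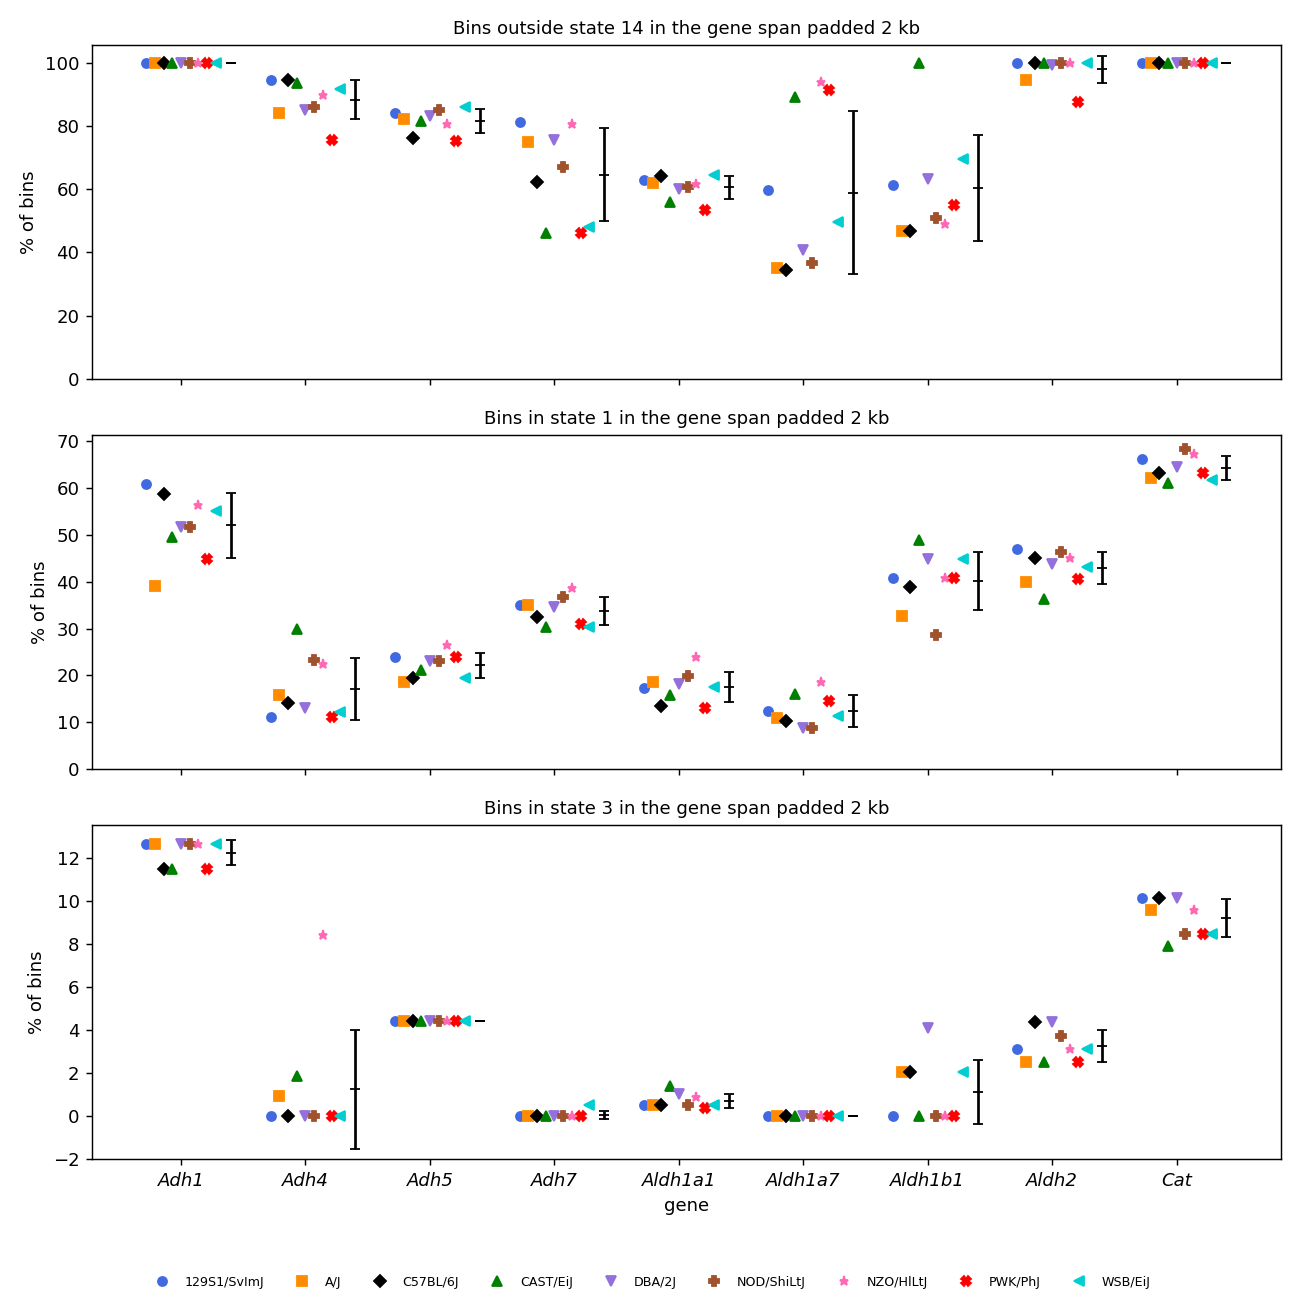
Share of 200-bp bins (vertical axes, %) outside state 14, in state 1 and in state 3 for each gene, with 1 symbol per strain and the mean with SD over the 9 strains as a bar at the right of each group. Aldh1a7, Aldh1b1 and Adh7 spread most outside state 14, while Adh1 and Cat sit at 100% in every strain.

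State 3, the state most concentrated near gene starts (37.9 times its share of the genome, against 10.1 for state 1), divided the members. It was found within 1 kb of a listed start (for Aldh2, of a gene end, as it has no listed start) in all 9 strains in 5 of 9 members, namely Adh1, Adh5, Aldh1a1, Aldh2 and Cat. Of all protein-coding genes 41.0% met the same rule, and of those with a listed start 42.3%, beside 4 members. Over the whole span, Adh1, Cat, Adh5 and Aldh2 lay above the protein-coding mean of 2.48%, a call made for 23.2% of genes. Adh7, Aldh1a1, Aldh1a7 and Aldh1b1 lay below it, a call made for 66.8%, and Adh4 was not called (adjusted p = 0.204, exact test). These shares depend on the length of the span. Aldh1a1, called lower, had 3 to 11 bins in state 3 among 776, and Adh5, called higher, had 5 among 113 in every strain. Against the median of genes 5 members were higher and 1 was lower. The call for Aldh1b1 (1.35 points below the mean, adjusted p = 0.0393, exact test) was lost without any 1 of 129S1/SvImJ, CAST/EiJ, NOD/ShiLtJ, NZO/HlLtJ or PWK/PhJ, with values from -1.16 to -1.24 points, and also with unpadded spans (-1.01 points, 3 members lower). Adh4 was 2.08 points below the mean and called lower once NZO/HlLtJ was left out.

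Adh1 encodes the main cytosolic enzyme for ethanol oxidation in liver. It lies at chr3:138277585-138290698 on the plus strand, and none of its 87 bins was in state 14 in any strain. A segment of state 3 began at chr3:138277601, in the bin next to the start, in all 9 strains. It ended at 138279800 in 6 strains and at 138279600 in C57BL/6J, CAST/EiJ and PWK/PhJ, a difference of 1 bin. The rest of the span was mostly in state 1, from 39.1% in A/J to 60.9% in 129S1/SvImJ, and in state 2, from 13.8% in NOD/ShiLtJ to 37.9% in PWK/PhJ. A/J also had the highest share in state 8, at 16.1%, against 2.30% to 11.5% in the others.

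The promoters of Adh1, Adh5 and Cat are shown because state 3 covered or adjoined these starts in every strain while the sequences differ in composition. For Adh5 this is the second of its 2 listed starts, here and in the values below. They are the 250 bases before the start in the RefSeq table of GRCm38.p6, 5′ to 3′ on the gene's strand, with CG dinucleotides and matches to TATAAA or CCAAT on either strand in capitals. A capital at the last base can belong to a match that continues past the start.
Adh1: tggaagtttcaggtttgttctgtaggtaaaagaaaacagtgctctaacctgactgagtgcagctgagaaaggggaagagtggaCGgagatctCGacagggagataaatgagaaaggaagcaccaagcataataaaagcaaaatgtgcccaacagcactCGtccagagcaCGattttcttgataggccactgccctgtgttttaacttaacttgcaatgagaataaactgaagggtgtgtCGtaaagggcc
Adh5: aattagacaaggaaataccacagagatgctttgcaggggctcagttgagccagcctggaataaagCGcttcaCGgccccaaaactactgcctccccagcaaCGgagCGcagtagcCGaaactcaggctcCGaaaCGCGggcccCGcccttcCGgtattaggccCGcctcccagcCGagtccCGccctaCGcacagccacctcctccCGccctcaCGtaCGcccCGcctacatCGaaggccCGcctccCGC
Cat: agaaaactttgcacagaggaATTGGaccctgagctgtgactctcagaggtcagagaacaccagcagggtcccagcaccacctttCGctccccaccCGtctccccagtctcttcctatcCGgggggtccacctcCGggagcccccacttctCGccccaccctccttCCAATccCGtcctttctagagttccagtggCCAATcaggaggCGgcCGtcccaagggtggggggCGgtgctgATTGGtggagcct
Over the 300-base window from 250 before to 50 after the start, Adh5 had 26 CG dinucleotides and 65.0% GC, Cat 11 and 62.0%, and Adh1 6 and 45.3%. The median of 32619 listed promoters was 7 CG dinucleotides and 53.0% GC. CCAAT, searched on both strands, matched 4 times in the Cat window and not in those of Adh1 and Adh5, and 37.6% of all listed promoters held at least 1 match. GGGCGG matched 3 times in the Adh5 window, 1 time in that of Cat and not in that of Adh1, against 35.9% of all promoters with a match. None of the 3 windows held TATAAA, which 13.7% of promoters held. The window of the first listed Adh5 start had 3 CG dinucleotides, 47% GC and 1 TATAAA match, and no strain had state 3 within 1 kb of that start.

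Adh5 encodes the glutathione-dependent formaldehyde dehydrogenase, which is expressed in nearly all tissues. It lies at chr3:138437200-138455499 on the plus strand and has 2 listed starts. The first start was in state 14 in 8 strains and in state 4 in DBA/2J. At the second start, chr3:138443093, a state 3 segment covered chr3:138442601-138443600 with the same borders in all 9 strains. The share of Adh5 in state 3 was therefore 4.42% in every strain. The upstream flank differed more: chr3:138440601-138441400 was in state 14 in PWK/PhJ and in state 9 in the other 8 strains. Counting runs of at least 4 bins, PWK/PhJ had 2 further private runs, where 8 strains share a state and 1 has another, at chr3:138451001-138452600 (states 4 and 6) and chr3:138454801-138455800 (state 4), both in state 2 elsewhere. With 23 private bins in Adh5, PWK/PhJ differed from the other strains at 45.4% of the gene's bins on average, against 21.8% to 29.3% for the others.

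Catalase was the most uniform member. Cat lies at chr2:103453904-103485153 on the minus strand, and no strain had state 14 anywhere in its 177 bins. States 1, 2 and 3 made up 64.2%, 24.7% and 9.23% of the span on average. The state 3 segment covered the start in all 9 strains and was 2600 bp long in CAST/EiJ and NOD/ShiLtJ and up to 3600 bp in 129S1/SvImJ, C57BL/6J and DBA/2J. Its upstream border lay between chr2:103485400 and chr2:103485800 and its border inside the gene between chr2:103481801 and chr2:103482801, so the strains varied more inside the gene. PWK/PhJ and WSB/EiJ, a pair of wild-derived strains, differed at 1.69% of the bins, the lowest of the 36 pairs.

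Aldh2, the mitochondrial enzyme that removes most acetaldehyde, lies at chr5:121566027-121593824. State 3 lay at the upper gene end in all 9 strains, at chr5:121592801-121593600 in 8 strains and from chr5:121592401 in DBA/2J. The share outside state 14 was 100% in 6 strains, 99.4% in DBA/2J, 94.4% in A/J and 87.5% in PWK/PhJ. The state 14 bins of A/J and PWK/PhJ shared 1 bin, while 8 were in A/J alone and 18 in PWK/PhJ alone. In the longest private runs PWK/PhJ had state 14 at chr5:121571201-121573600 and A/J had it at chr5:121578601-121580000, and at both places the other 8 strains were in state 4. State 4 was a larger part of Aldh2 (32.2% ± 5.40) than of any other member, with the lowest value, 22.5%, in PWK/PhJ and the highest, 42.5%, in CAST/EiJ.

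**Figure D2:**
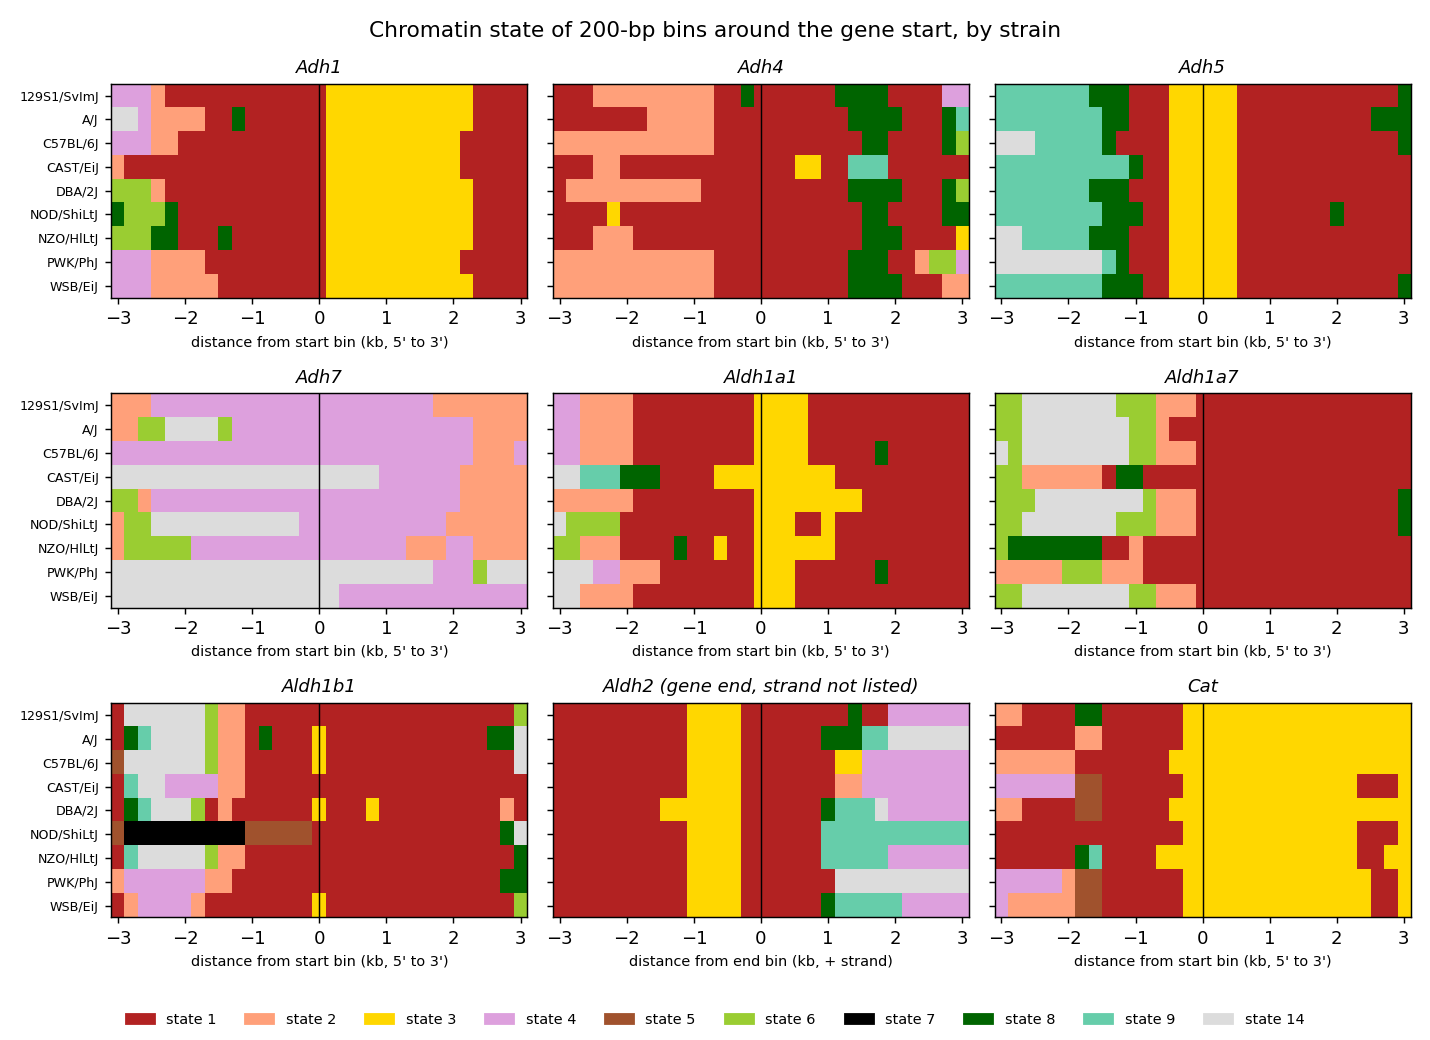
States of 200-bp bins (colours) within 3 kb of a start in each strain (rows), drawn 5′ to 3′, with the last listed start of Adh5 and Aldh1a1 and, for Aldh2, the upper gene end on the plus strand. State 3 (yellow) is present in all 9 rows for Adh1, Adh5, Aldh1a1, Aldh2 and Cat, in 4 rows at the start of Aldh1b1, and in no row within 1 kb of the starts of Adh7 and Aldh1a7.

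Aldh1a1 and Aldh1a7 are neighbouring paralogs on chromosome 19. Aldh1a1 is the cytosolic retinaldehyde dehydrogenase, which makes retinoic acid. Aldh1a1 spans chr19:20492583-20643463 on the plus strand and Aldh1a7 spans chr19:20692953-20727556 on the minus strand. Their promoters are shown together because the sequence next to the start is nearly the same while the state there was not, with capitals as above. For Aldh1a1 this is the second of its 2 listed starts.
Aldh1a1: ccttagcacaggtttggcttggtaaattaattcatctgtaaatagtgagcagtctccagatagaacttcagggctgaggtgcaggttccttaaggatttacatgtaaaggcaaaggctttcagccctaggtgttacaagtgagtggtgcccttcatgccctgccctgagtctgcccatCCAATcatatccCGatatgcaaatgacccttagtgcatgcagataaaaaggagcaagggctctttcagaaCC
Aldh1a7: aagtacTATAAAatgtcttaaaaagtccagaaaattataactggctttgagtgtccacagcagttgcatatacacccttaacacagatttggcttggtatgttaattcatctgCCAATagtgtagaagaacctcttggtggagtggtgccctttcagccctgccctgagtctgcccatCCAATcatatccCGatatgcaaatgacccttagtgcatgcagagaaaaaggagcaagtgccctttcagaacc
Compared position by position without gaps, the last 100 bases before the start were equal at 94 positions and the 50 bases after it at 48. The longest equal run was 65 bases, from -94 to -30 with the start counted as 0, and it holds a CCAAT from -72 to -68 in both genes. In the 150 bases farther upstream 35 positions were equal. Stretches that are shifted between the sequences, such as tttggcttggta in both, do not count as equal in this comparison. These are reference sequences, and those of the other strains were not used here.

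At the second Aldh1a1 start, chr19:20601968, state 3 was present in all 9 strains. Its segment was 600 bp long in NOD/ShiLtJ, PWK/PhJ and WSB/EiJ, 800 bp in 129S1/SvImJ, A/J and C57BL/6J, 1200 bp in NZO/HlLtJ, 1600 bp in DBA/2J and 1800 bp in CAST/EiJ. The Aldh1a7 start, chr19:20727556, was in state 1 in all 9 strains, and no bin of Aldh1a7 was in state 3 in any strain. How the authors placed reads that match both genes is not given in the sources used here, so the states at these paralogs are uncertain to that extent.

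Within Aldh1a1, the part around and after the second start, chr19:20599401-20645600, was outside state 14 in all 9 strains over its 231 bins. The first start, chr19:20492583, had no state 3 within 1 kb in any strain and was in states 2, 4, 6 or 14. Over the whole gene the strains lay close together outside state 14, from 53.4% in PWK/PhJ to 64.4% in WSB/EiJ with a median of 61.7%. The padded span also holds the lncRNA genes E030003E18Rik and C730002L08Rik and the pseudogene Gm6684, whose states cannot be told apart from those of Aldh1a1.

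Aldh1a7 was the most divergent member. Its share outside state 14 was 93.8% in NZO/HlLtJ, 91.2% in PWK/PhJ and 89.2% in CAST/EiJ. It was 59.8% in 129S1/SvImJ, 49.5% in WSB/EiJ, 40.7% in DBA/2J, 36.6% in NOD/ShiLtJ, 35.1% in A/J and 34.5% in C57BL/6J. The first 3 strains stood well above the rest, a split that was noticed in the data and not tested. In the neighbouring Aldh1a1 the same strains had 61.7%, 53.4% and 55.8%, among the values of the other 6, 60.2% to 64.4%, or below them.

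The 3 strains differed from the rest in the body of Aldh1a7 and in the flank upstream of its start, but not in the start bin itself. In the farthest bins of that flank the other 6 strains were in state 14 and the 3 strains were not. Of its 194 bins, 59 were outside state 14 in all 9 strains, among them the start. In 39 bins, 20.1% of the span, state 14 was called in 6 strains while NZO/HlLtJ, PWK/PhJ and CAST/EiJ all had another state, and 78 of the 117 values of these 3 strains there were state 4. Another 17 bins had the same 3 strains joined by 129S1/SvImJ, and 16 had them joined by WSB/EiJ. The longest such runs were chr19:20707601-20710200 and chr19:20711401-20714000 for the 3 strains alone, and chr19:20716601-20719800 with WSB/EiJ. Pairs of strains ranged from 10.3% of bins in different states, for A/J and C57BL/6J, to 77.8%, for NOD/ShiLtJ and PWK/PhJ.

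**Figure D3:**
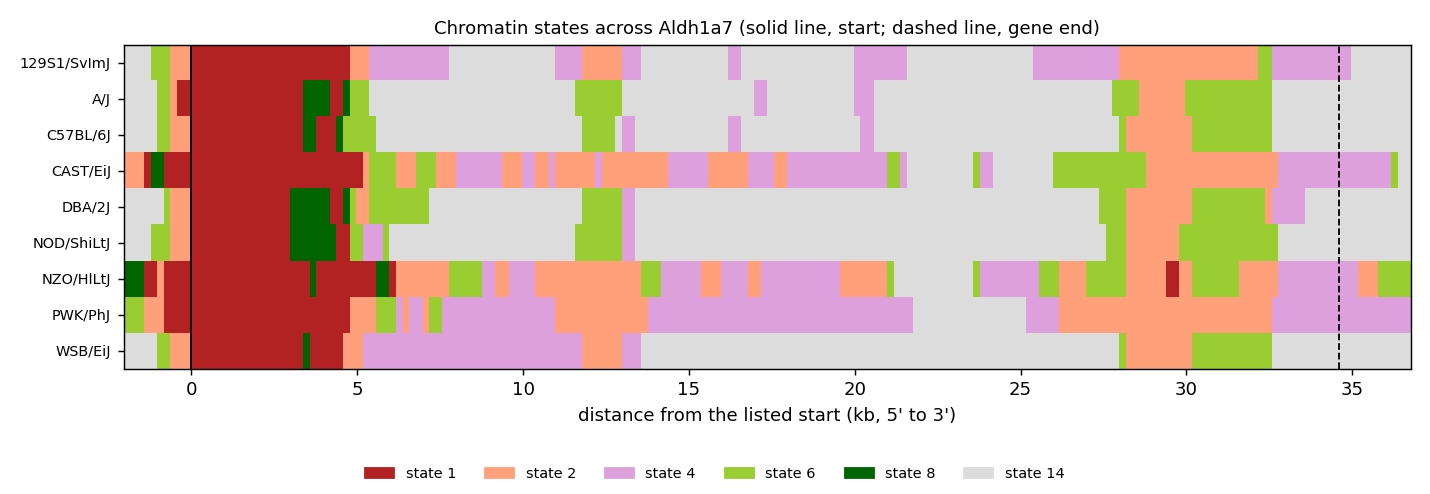
States of 200-bp bins (colours) across Aldh1a7 padded 2 kb, by strain (rows) and distance from the start in kb (horizontal axis). State 1 (red) follows the start in all 9 strains, and state 14 (grey) fills most of the interior in A/J, C57BL/6J, DBA/2J and NOD/ShiLtJ but little of it in CAST/EiJ, NZO/HlLtJ and PWK/PhJ.

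Adh7 encodes the class IV enzyme, a retinol and ethanol dehydrogenase known mainly from the stomach and other epithelia. Its span is chr3:138198064-138232042 on the plus strand, with the listed start at chr3:138217773. No strain had state 3 within 1 kb of that start, which was in state 4 in 6 strains and in state 14 in CAST/EiJ, PWK/PhJ and WSB/EiJ. The upstream end of the span, which is not a listed start, did not share this change to state 14. There, chr3:138197801-138198800 was outside state 14 in every strain, with 28 of its 45 values in state 8 and 13 in state 1. The promoter of the listed Adh7 start is shown, with the same capitals, as that of a listed start that changed state between strains.
Adh7: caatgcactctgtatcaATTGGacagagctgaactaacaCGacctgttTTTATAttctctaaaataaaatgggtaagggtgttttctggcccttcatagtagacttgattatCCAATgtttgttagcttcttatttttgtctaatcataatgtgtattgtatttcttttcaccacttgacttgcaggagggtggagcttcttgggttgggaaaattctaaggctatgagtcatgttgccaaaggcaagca
The window had 39.3% GC, 3 CG dinucleotides, 2 CCAAT matches and 1 TATAAA match on the opposite strand, from -202 to -197.

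State 14 covered 53.9% of Adh7 in CAST/EiJ and PWK/PhJ and 51.8% in WSB/EiJ, against 18.8% to 37.7% in the other 6 strains, a split noticed in the data and not tested. The 3 strains were in state 14 together, with the other 6 elsewhere, at 12 bins, and together with C57BL/6J at 15. The downstream part of Adh7 did not share this: chr3:138221001-138234200, 66 bins that reach the edge of the padded span, was outside state 14 in all 9 strains, with 532 of its 594 values in state 1. The span also holds the lncRNA gene 0610031O16Rik, and which gene these states belong to cannot be told apart.

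Adh4, the class II enzyme, is a liver alcohol dehydrogenase that also acts on retinol, and lies at chr3:138415456-138432683. Its start was in state 1 in all 9 strains, and only CAST/EiJ had state 3 within 1 kb, over 400 bp. Elsewhere in the span NZO/HlLtJ had 8.41% in state 3 and A/J 0.935%, and 6 strains had none. Of its 107 bins 24 had 1 state in all 9 strains, and 51 took 3 states or more. Of the variable bins 28 took state 14 in some strain and 55 never did, so most variable bins moved among the states other than 14. State 4, for example, covered 37.4% in WSB/EiJ and 33.6% in 129S1/SvImJ but 2.80% in NOD/ShiLtJ.

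Aldh1b1, a mitochondrial enzyme related to Aldh2 that also oxidises acetaldehyde, is the shortest member, at chr4:45799022-45804608. The bin at its start was in state 3 in A/J, C57BL/6J, DBA/2J and WSB/EiJ and in state 1 in the other 5 strains. CAST/EiJ had no bin in state 14, whereas the others had 30.6% to 53.1%, and 46.9% of the span in state 4 against at most 14.3% elsewhere. A run of 7 bins at chr4:45804201-45805600 was in state 4 in CAST/EiJ and in state 14 in all the others. NOD/ShiLtJ had 10.2% in each of states 5 and 7, next to the start on its upstream side, and no other strain had either state in the span.

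The alcohol dehydrogenase genes lie in 1 cluster on chromosome 3, in the order Adh7, Adh1, Adh6a, Adh6b, Adh4 and Adh5. Adh6a and Adh6b, less studied genes of the same family, are not among the 9. Adh6a was mostly in state 14, which held 80.0% to 93.6% of its bins, although it sits between Adh1 and Adh6b. Adh6b varied widely, with state 14 at 9.26% in C57BL/6J, 12.0% in DBA/2J and 15.7% in WSB/EiJ but 57.4% in NOD/ShiLtJ, and neither gene had state 3 in any strain.

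**Figure D4:**
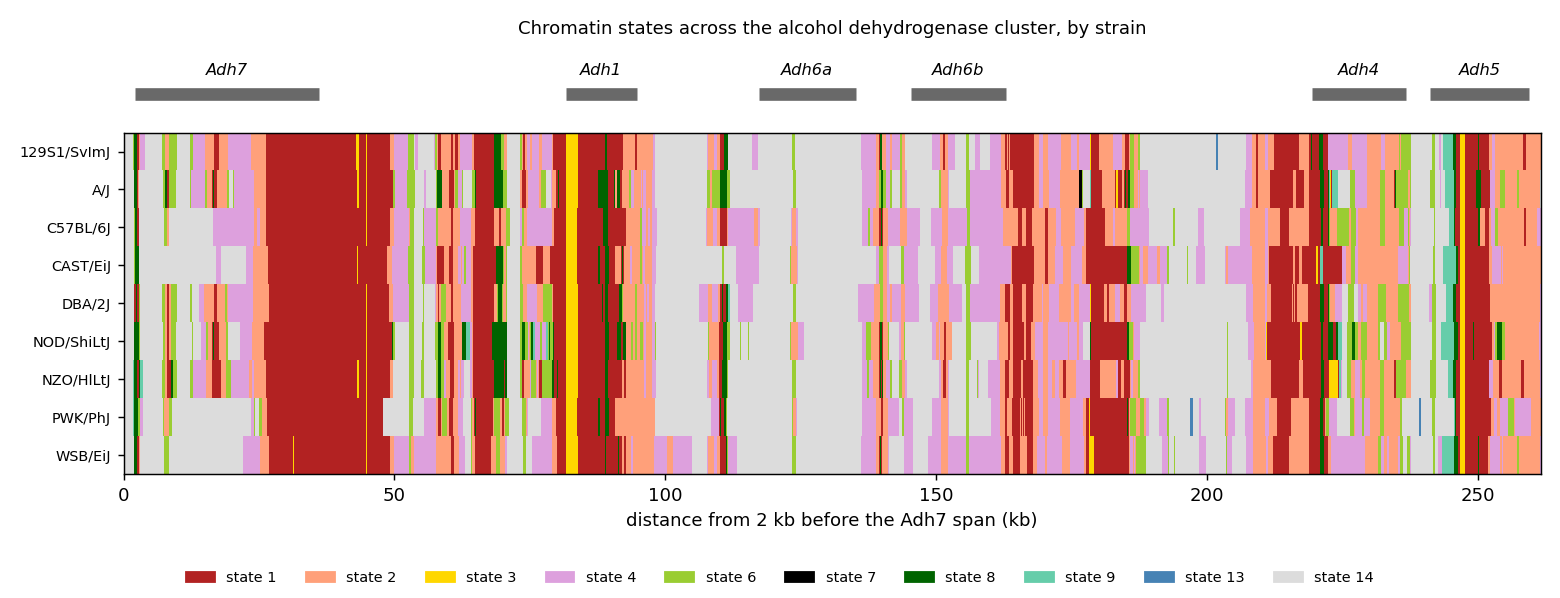
States of 200-bp bins (colours) across the alcohol dehydrogenase cluster by strain (rows), with distance in kb along the plus strand and gene spans as bars above. State 1 (red) blocks at Adh7, Adh1 and Adh5 and the state 3 (yellow) segments at Adh1 and Adh5 line up across strains, and Adh6a lies in a stretch that is mostly state 14 (grey).

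Divergence between strains, the percentage of a gene's bins in different states averaged over the 36 strain pairs, ran from 10.4% to 48.6% over the members with a median of 27.1%, against a median of 19.7% and quartiles of 10.9% and 28.9% over all protein-coding genes. Aldh1a7 (48.6%) and Adh4 (44.5%) lay at the 98.1 and 96.1 percentiles of all genes. Aldh1b1 followed at 32.0%, Adh7 at 28.0%, Adh5 at 27.1% and Aldh1a1 at 27.03%, all between the 70.3 and 81.4 percentiles. Adh1 at 21.0%, Aldh2 at 18.4% and Cat at 10.4% lay at the 53.7, 46.4 and 23.6 percentiles. With 10 kb of padding Adh1 moved up to the 81.4 percentile, Adh5 to 81.8, Cat to 45.0 and Aldh2 to 66.7, while Adh7 moved down to 52.9 and Aldh1b1 to 66.3. With states 13 and 14 merged, Adh1 moved up to the 68.1 percentile, Aldh2 to 62.9 and Cat to 45.6.

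**Figure D5:**
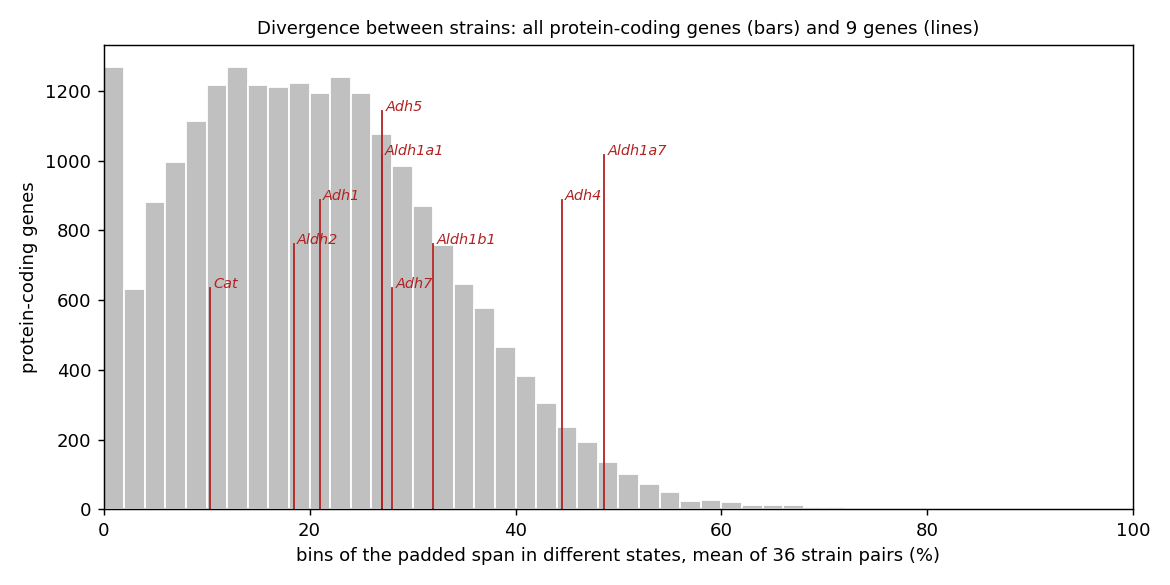
Number of protein-coding genes (vertical axis) by the mean percentage of bins that differ over 36 strain pairs (horizontal axis), with the 9 genes as labelled lines of arbitrary height. Aldh1a7 and Adh4 lie in the upper tail and Cat in the lower part.

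Over all 1854 member bins, a strain differed from another at 27.9% ± 2.72 of bins on average, against 17.6% ± 1.51 over the spans of all protein-coding genes. The makeup of these sets differs. State 14 filled 27.5% of the member bins, against a mean of 55.4% over protein-coding genes, and state 13 filled 0.252%, against 13.3%. The member shares are pooled over bins, so long genes weigh more, while the means over protein-coding genes count each gene equally. The part of this makeup in the difference was not tested. Over the member bins, the values of single strains were highest in CAST/EiJ (32.1%), PWK/PhJ (31.8%) and NZO/HlLtJ (30.3%). They lay between 24.9% and 27.2% in the other 6 strains. Over all genes NZO/HlLtJ had 16.7%, below the mean. Its value differed widely between members: it was 64.4% in Aldh1a7 and 30.4% in Aldh1a1, which holds 776 of the 1854 bins, but 16.4% in Adh1 and 22.2% in Aldh1b1, where no strain was lower. Private bins were most numerous in PWK/PhJ, with 53 of 249, of which 23 were in Adh5 and 12 in Aldh2. CAST/EiJ had 39, of which 14 were in Aldh1a1 and 7 each in Aldh1b1 and Cat, and NZO/HlLtJ had 36, of which 26 were in Aldh1a1.

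The gene of most similar makeup was sought for each member among protein-coding genes of other chromosomes with at least 20 bins, by the overlap of the 14 state shares averaged over the 9 strains. Cat was most like H6pd, with an overlap of 93.1%, and Aldh1a1 like Adcy9 (91.2%). Aldh2 was most like Il6ra (88.9%), Adh1 like Mpc1 (88.7%), Adh7 like Vnn3 (83.3%), Adh5 like Rab11b (82.4%) and Adh4 like Gcnt2 (81.7%). Aldh1b1 and Aldh1a7 had the lowest best overlaps, 79.7% with Lmna and 78.9% with Arhgef26. For Aldh1a7 the overlap with Arhgef26 ranged from 49.2% to 96.9% between strains, so Arhgef26 did not follow it closely in all of them. Genes were ranked by the mean overlap, and whether another gene followed Aldh1a7 more evenly was not tested.

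A further 21 genes of alcohol, aldehyde and acetate metabolism were read the same way. Of these, 13 lay above the protein-coding mean outside state 14, 5 lay below it and 3 were not called, and their median was 59.8%, between the members' and that of all genes. Of all genes 35.8% were higher and 48.5% lower. For state 1, 13 were higher, 7 lower and 1 not called, against 25.7% and 66.4% of all genes. For state 3, 9 were higher, 11 lower and 1 not called, against 23.2% and 66.8%. For state 13, 3 were higher and 18 lower, against 19.4% and 69.3%, and the median gene was at 0% here too. The highest shares outside state 14 were those of Aldh1l1, a folate-dependent dehydrogenase, at 100% in every strain, Aldh8a1 at 90.0% ± 7.01 and Cyp2e1 at 88.3% ± 5.71. The lowest were those of Aldh1l2, the mitochondrial relative of Aldh1l1, at 3.54% ± 1.13, Acss1, the mitochondrial acetyl-CoA synthetase, at 7.48% ± 2.94, and Adh6a at 12.0% ± 4.87.

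Cyp2e1, the microsomal cytochrome that oxidises ethanol, lay between 82.9% and 100% outside state 14 but took different states in different strains. Its divergence was 56.2%, at the 99.4 percentile, and only Aldh16a1, at 60.4%, was higher in the list. States 5 and 7, which cover 0.0758% and 0.0414% of the genome, made up 42.1% and 39.5% of Cyp2e1 in CAST/EiJ, which had no state 1 there. NOD/ShiLtJ and PWK/PhJ had neither state, and state 1 covered 50% and 43.4%, in that order. State 1 in the other 6 strains ran from 14.5% in C57BL/6J to 43.4% in DBA/2J. State 3 was highest in NOD/ShiLtJ, at 17.1%, and at 0 in CAST/EiJ and WSB/EiJ.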

How the data were processed

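The deposited files hold, for each strain, intervals that carry 1 of 14 chromatin state numbers, a category and no count, signal or score. Per the submitters' processing notes the build is mm10, and FastQC 0.11.5 and MACS 1.4.2 were used, with no role stated. The aligner, the segmentation tool and the depth are not given in the sources used here, and no value per mouse was used. Gene spans and starts came from RefSeq tables of GRCm38.p6, the same build, with listed starts for 17274 of 21631 protein-coding genes and both gene ends used for the other 4357. Promoters were listed for 8 of the 9 members (not Aldh2).

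Intervals were written as 200-bp bins and shares taken over gene spans padded 2 kb. The sign-flip test enumerated all 512 sign patterns, with a smallest p of 0.0039, and genes were called at an adjusted p of 0.05 or less. The strains are related by descent, so their values are not independent of each other. The members and lists were chosen with earlier results of these data known. Besides the members, the genes named are those of a fixed list of 21 with the 3 highest and 3 lowest shares and the 2 highest divergences, with Cyp2e1, Adh6a and Adh6b in any case, the best match of each member, 1 example of a marker list, and other genes inside a member's span. Alternatives covered padding, autosomes alone, the median, leaving out each strain, merged states, start windows and a match within 1 bin. The code was tested on simulated data. The work was done in Python 3.11.15 with pandas 2.3.3, matplotlib 3.10.9, numpy 2.4.6 and scipy 1.17.1.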

Additional observations from a re-analysis of the deposited data

Results flagged for a closer look

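In 7 of 33 sets of 9 strain values 1 strain stood apart. Chance flags about 1 set in 20, but these sets share bins and those of state 3 move in steps of 1 bin, so the 7 were not tested against chance. A strain was taken to stand apart when its gap to the nearest strain took up more of the whole range than Dixon's 95% limit for 9 values allows.

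A/J differed from the other strains at 28.9% of the Adh1 bins on average, against 16.4% to 22.1% for the others. NZO/HlLtJ had 8.41% of Adh4 in state 3, against 0 to 1.87%. PWK/PhJ differed at 45.4% of the Adh5 bins, against 21.8% to 29.3%. PWK/PhJ also had the lowest share of Aldh2 outside state 14, 87.5%, against 94.4% to 100%.

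Aldh1b1 gave 3 of the 7. CAST/EiJ had 100% of its bins outside state 14, against 46.9% to 69.4%, and differed from the others at 56.1% of bins, against 22.2% to 36.2%, values that rest on the same bins. DBA/2J had 4.08% in state 3, which is 2 bins, against 0 to 2.04%, so this value rests on very few bins.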

How the results depend on the processing

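Most values kept their direction and call under the alternatives. Against the median over genes in place of the mean, 1 member was lower in state 3 in place of 4 and 0 were lower in state 13 in place of 9. There Aldh1a1 was 0.43 points and Aldh1b1 0.87 points above in state 3, and Adh5 was 0.20 points and Aldh1a1 0.57 points above in state 13, each turned from below, because the median gene has little or none of these states. Counting a match within 1 bin lowered the members' median divergence from 27.1% to 20.5% and the mean disagreement of strains from 27.9% to 21.8%. Without padding the call of Aldh1b1 in state 3 was lost (-1.01 points). With 10 kb of padding the calls of Aldh1b1 outside state 14 (0.079 points above the mean) and of Aldh1a7 in state 1 (1.76 points) were lost. With states 13 and 14 both left out of the share, Aldh1a7 was called, at 27.7 points above the mean. Without CAST/EiJ the divergence of Aldh1b1 moved to the 66.4 percentile, and without PWK/PhJ that of Adh5 to the 59.4 percentile. Leaving out each strain gave 8 members higher outside state 14, 3 to 4 lower in state 3, 5 with state 3 at the start, a median divergence of 26.0% to 28.5% and a mean disagreement of 26.7% to 28.8%.

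No paired analysis was possible because the mouse numbers in the labels have no values of their own in the maps, which combine the mice of a strain. Differences between single strains have no error and no test. Depth and read placement have no values here, and their part in the values of single strains was not tested.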
